A study of Mus musculus with 6 samples.

Results

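The syndecans and glypicans are the main families of heparan sulfate proteoglycans held at the cell surface, and their 10 mouse genes were examined in cells labelled primary vascular smooth muscle cells (VSMC), the contractile cells of the vessel wall. Members were taken by gene symbol, Sdc1 to Sdc4 and Gpc1 to Gpc6. All 10 were found among the 56393 genes of the deposited table. The study compared 3 libraries labelled knockout for Nono (KO) with 3 labelled wild type (WT). The product of Nono binds RNA and DNA and is part of paraspeckles, which are bodies in the nucleus, and the series title concerns its effect on Bmp2 transcription in vascular calcification. Both groups grew in DMEM with 20% fetal bovine serum and antibiotics at 37 °C in 5% CO2 and received no further treatment. The strain, sex and age of the mice, the way Nono was disrupted, and whether replicates were separate cultures or animals are not stated in the labels. The p-values therefore measure only the spread between these libraries, which may be technical.

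Syndecans are transmembrane core proteins with a short cytoplasmic tail that binds the adaptor syntenin, and glypicans are globular core proteins tied to the outer membrane by a glycosylphosphatidylinositol anchor. Both carry heparan sulfate, a sulfated sugar chain that binds growth factors, BMPs and Wnts among them, as well as matrix proteins and lipoproteins. In the vessel wall such chains act as co-receptors for growth factors and for adhesion to fibronectin.

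Library totals ranged from 56529170 to 61670083 counts. Levels are given as CPM (counts scaled to a common library size) scaled by trimmed mean of M-values (TMM) factors, and, where genes are compared with each other, as the deposited FPKM, which is per transcript length. Nono itself had a mean of 514.9 ± 11.0 CPM in the WT and of 53.95 ± 2.55 CPM in the KO libraries (SD, n = 3 each). KO and WT also differed outside Nono: over all 18732 genes tested with the edgeR quasi-likelihood test, 69.3% passed at 0.05 after Benjamini-Hochberg adjustment, of which those higher in KO were 35.1% and those lower 34.2% of the genes tested, and in 75.5% the CPM of the groups did not overlap. The 4 Y-linked genes checked summed to 149.9 to 163.3 CPM in KO libraries and to 0 to 0.0795 CPM in WT libraries, and the 8 fibroblast markers to 10900 to 11810 CPM in KO and 887.5 to 1038 CPM in WT, with 7 higher, Pi16 not called and Lum at 0 counts in WT. Of 10 smooth muscle markers 6 were higher and 2 lower, summing to 410.9 to 612 CPM in WT and 577 to 817 CPM in KO. Among the contractile markers, Acta2 averaged 16.4 CPM in WT and 161 in KO, Tagln 0.859 and 15.0, Lmod1 1.41 and 7.52, Cnn1 0.0212 and 3.49, and Actg2 0.0529 and 1.35, all called higher. Myh11, the smooth muscle myosin, averaged 0.467 CPM in WT and 0.219 in KO and was not called, Des was lower (4.29 and 0.848), and Myocd was lower with 0 counts in KO. Cald1, not called, made up most of the sum (452 and 480 CPM). Markers of 3 other cell types summed lower in KO, though their members split: epithelial and mesothelial markers to 77.0 to 84.8 CPM in WT and 9.87 to 13.4 CPM in KO (Krt19 and Msln lower, Cdh1 and Wt1 higher, Epcam and Krt18 at 0 in both), leukocyte markers to 61.7 to 73.8 and 7.35 to 8.98 CPM (Cd74 and Lyz2 lower, Cd68 and Csf1r higher, Ptprc and Adgre1 at 0 in both), and endothelial markers to 3.29 to 3.70 and 1.58 to 1.93 CPM (3 lower, Vwf higher, Cdh5, Kdr and Emcn at 0 in KO). The sums of 6 Schwann and neural markers overlapped, at 68.2 to 72.2 CPM in WT and 54.9 to 70.7 CPM in KO, with 3 higher, Mbp lower and Sox10 at 0 in WT. Genotype, Y-linked transcripts and the sums of fibroblast, epithelial and mesothelial, leukocyte and endothelial markers separated the same libraries. Their parts in any difference below cannot be told apart. In these bulk samples, a change in the share of a cell type and a change in RNA per cell cannot be told apart either.

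All 4 syndecans were higher in KO, and the glypicans went from Gpc1 almost alone in WT to Gpc4, Gpc1 and Gpc6, at 11.8 to 23.6 FPKM, in KO. Of the 6 glypicans, Gpc4, Gpc6 and Gpc2 were higher, Gpc1 was slightly lower, and Gpc3 and Gpc5 were at 0 counts in all 6 libraries. Thus 8 of 10 members passed the filter on low counts and 8 of these 8 passed the test, 7 higher and 1 lower, beside 69.3% of all tested genes called, 35.1% higher and 34.2% lower. Over the 8 tested members the log2 fold change had a median of 2.16, also with Gpc4 and Gpc2 at their lower bounds, beside 0.03 over all tested genes. Gpc4 and Gpc2 passed the filter only through their KO libraries, so the count and the median are descriptions. The 4 syndecans, which all passed it in both groups, had a median of 1.37.

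Promoter windows from RefSeq (build GRCm38.p6) could be matched for 7 of the 10 members and are shown for 4: Gpc4 and Gpc3, which adjoin on chromosome X and were counted in KO only and in no library, respectively, and Sdc3 and Sdc4, the syndecans with the largest and the smallest increase. Each line is the 250 bases before the RefSeq start, 5′ to 3′ on the strand of the gene, with matches to the GC box GGGCGG and to TATAA on either strand in capitals.
Gpc4 (chrX:52164924-52165173, minus strand): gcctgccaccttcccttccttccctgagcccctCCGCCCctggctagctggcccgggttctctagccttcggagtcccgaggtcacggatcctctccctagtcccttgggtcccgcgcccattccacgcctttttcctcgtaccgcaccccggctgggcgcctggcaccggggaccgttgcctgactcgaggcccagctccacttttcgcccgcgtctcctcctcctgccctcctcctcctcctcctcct
Gpc3 (chrX:52613975-52614224, minus strand): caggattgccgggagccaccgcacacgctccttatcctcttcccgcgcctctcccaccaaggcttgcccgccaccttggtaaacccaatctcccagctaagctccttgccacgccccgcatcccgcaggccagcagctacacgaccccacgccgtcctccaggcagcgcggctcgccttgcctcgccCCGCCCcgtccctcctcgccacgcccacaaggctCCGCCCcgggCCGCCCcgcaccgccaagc
Sdc3 (chr4:130792287-130792536, plus strand): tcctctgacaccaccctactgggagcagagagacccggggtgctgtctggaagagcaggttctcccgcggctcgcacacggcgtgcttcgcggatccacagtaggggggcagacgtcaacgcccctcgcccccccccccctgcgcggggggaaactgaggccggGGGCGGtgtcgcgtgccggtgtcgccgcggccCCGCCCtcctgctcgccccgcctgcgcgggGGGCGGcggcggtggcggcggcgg
Sdc4 (chr2:164443189-164443438, minus strand): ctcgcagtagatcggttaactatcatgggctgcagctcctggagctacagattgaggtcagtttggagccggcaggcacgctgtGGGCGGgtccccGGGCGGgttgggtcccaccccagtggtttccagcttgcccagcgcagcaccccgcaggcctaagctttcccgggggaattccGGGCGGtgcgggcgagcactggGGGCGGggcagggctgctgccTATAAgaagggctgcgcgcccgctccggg
The Gpc4 window held 1 GC box and 18 CG dinucleotides, and the Gpc3 window 3 GC boxes and 25 CG dinucleotides. Sdc3 had 3 GC boxes and 32 CG dinucleotides. Sdc4 had 4 GC boxes, 19 CG dinucleotides and a TATAA from 29 to 25 bases before the start. All 7 member windows held at least 1 GC box, which 32.7% of the 32851 RefSeq windows of this length did. TATAA was in the member windows of Sdc1, Sdc4 and Gpc5, and in 22.8% of all windows. The median window had 6 CG dinucleotides. These matches describe the letters only, and the members that were counted and those at 0 both had GC boxes.

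Among the syndecans, Sdc3 changed most. Sdc3 (ENSMUSG00000025743), known as N-syndecan from its abundance in nerve tissue, was at 62.0, 66.3 and 63.7 CPM in the WT libraries and at 416, 390.1 and 399.9 CPM in the KO libraries. The groups lay far apart, with a replicate spread of 3.38% (coefficient of variation) in WT and 3.28% in KO. The difference was 6.28-fold (edgeR log2 fold change 2.65, SE 0.05, adjusted p = 2.93e-09). Sdc1 (ENSMUSG00000020592), the syndecan best known from epithelia and plasma cells, was at 119, 108 and 108 CPM in WT and at 296, 356 and 408 CPM in KO. Its KO libraries were uneven, spanning 1.38-fold, but the lowest was well above the highest WT library. Its difference was 3.17-fold (edgeR log2 fold change 1.66, SE 0.11, adjusted p = 7.08e-06), and the log2 value was 1.55 without KO replicate 3 and 1.77 without KO replicate 1.

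Sdc2 (ENSMUSG00000022261), the syndecan typical of mesenchymal cells, was at 56.5, 61.2 and 60.3 CPM in WT and at 122, 127 and 128 CPM in KO. Every KO library was thus about double every WT library, 2.12-fold in the fit (edgeR log2 fold change 1.08, SE 0.05, adjusted p = 4.28e-07). Sdc4 (ENSMUSG00000017009), a focal adhesion component that binds fibronectin together with integrins and signals through protein kinase C alpha, had the highest FPKM of the members in WT. It was at 186, 213 and 191 CPM in WT and at 275, 279.5 and 269 CPM in KO. The groups did not overlap, and the difference of 1.40-fold was the smallest of the 4 (edgeR log2 fold change 0.48, SE 0.06, adjusted p = 9.45e-05). Fibroblast markers and Y-linked transcripts rose in the same KO libraries (10900 to 11810 and 149.9 to 163.3 CPM in sum), and their part in the syndecan differences was not tested.

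**Figure D1:**
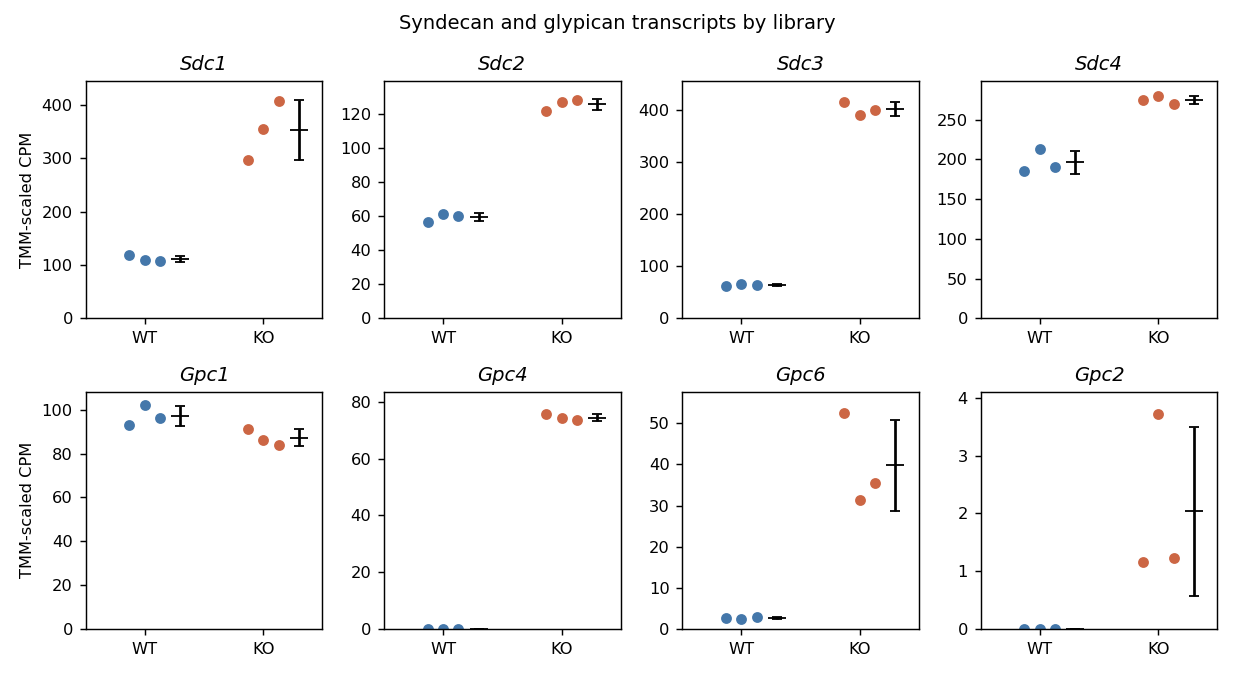
TMM-scaled CPM of the 8 counted members in the 3 WT (blue) and 3 KO (orange) libraries, one panel per gene on its own linear axis; points are libraries and the bar beside them is mean ± SD (n = 3). The 4 syndecans are higher in every KO library, Gpc4 and Gpc2 are at 0 in WT, and Gpc1 is the panel in which KO is slightly lower.

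Gpc4 showed an all-or-none pattern. This glypican (ENSMUSG00000031119), a co-receptor for growth factors in development, had 0 counts in each WT library. In KO it had 4450, 4082 and 4336 counts, or 75.9, 74.2 and 73.6 CPM, among the tightest replicates of the set (coefficient of variation 1.59%). Against a floor of 3 counts over the WT group (0.0161 CPM), Gpc4 was at least 4622-fold higher in KO (edgeR adjusted p = 1.36e-08). Gpc4 passed the filter only through its KO libraries, so this p-value is a description. The bound scales with WT depth and was 3053-fold to 3131-fold when 1 WT library was left out. Counts of 0 in all WT libraries with at least 5 CPM in KO were found in 100 of the 18732 tested genes (0.534%). Floors cover counting error only.

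Gpc6 (ENSMUSG00000058571), a glypican that in humans underlies a form of short-limbed skeletal dysplasia, was counted in both groups. Its WT libraries were at 2.615, 2.32 and 2.80 CPM and its KO libraries at 52.4, 31.4 and 35.5 CPM. KO replicate 1 stood above the other KO libraries in CPM, by 1.67-fold over the lowest, but by only 1.18-fold in the deposited FPKM (12.9, 10.9 and 11.6). The counts and the FPKM of this gene therefore scale differently between libraries, and on both scales the groups were far apart. The difference was 15.4-fold (edgeR log2 fold change 3.95, SE 0.21, adjusted p = 9.89e-07), with a log2 value of 3.70 without KO replicate 1. Gpc2 (ENSMUSG00000029510), best known from the developing nervous system, had 0 counts in WT and 68, 205 and 72 counts in KO, or 1.16, 3.73 and 1.22 CPM. KO replicate 2 thus held most of its counts. By the counts assigned to it, Gpc2 was at least 126-fold higher in KO (edgeR adjusted p = 0.000444). The bound was 73.8-fold without KO replicate 2 and 83.4-fold to 85.5-fold when 1 WT library was left out. Gpc2 also passed the filter only through KO, so its p-value is a description. Gm43720, annotated on the same strand and overlapping Gpc2, had 70 counts in WT and 168 in KO, so reads of the pair may not be separable. Its KO libraries were at 0.972, 0.182 and 1.71 CPM, lowest in KO replicate 2, where Gpc2 was highest. The bound of Gpc2 does not hold if WT reads of Gpc2 were counted for Gm43720, which was not tested.

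Gpc1 was the counted member that did not rise. This widely expressed glypican (ENSMUSG00000034220) was at 93.1, 102 and 96.3 CPM in WT and at 91.4, 86.45 and 84.1 CPM in KO. The groups did not overlap, but by a small margin, and the difference was 1.11-fold (edgeR log2 fold change -0.16, SE 0.06, adjusted p = 0.0421). Its call was lost in 7 of 16 alternatives, in which the adjusted p ranged up to 0.133. Gpc3, mutated in a human overgrowth syndrome, and Gpc5 had 0 counts in every library. For each of them a count of 0 allows up to 0.0161 CPM in WT and 0.0174 CPM in KO (3 counts over the group). The Y-linked sum again separated the libraries of these comparisons (149.9 to 163.3 CPM in KO), and its part in the glypican differences was not tested.

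Per transcript length, the order of the members changed between the groups. In WT the deposited FPKM were highest for Sdc4 (73.0), then Sdc1 (34.6), Gpc1 (22.0), Sdc2 (15.4) and Sdc3 (12.7), with Gpc6 at 0.632 and the other 4 listed at 0. The ranges of neighbours in this order did not overlap among the 6 members above 0. In KO the order by mean FPKM was Sdc1 (99.4 ± 17.65 SD), Sdc4 (93.6 ± 1.95), Sdc3 (69.6), Sdc2 (29.8), Gpc4 (23.6), Gpc1 (17.8), Gpc6 (11.8) and Gpc2 (0.729). Sdc1 and Sdc4 overlapped in KO, with Sdc1 libraries from 81.0 to 116 FPKM and Sdc4 libraries from 91.8 to 95.7 FPKM, so their order is not resolved. The other neighbours above 0 did not overlap.

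On the deposited FPKM, which were not rescaled with the TMM factors, the makeup of both families shifted while their sums grew by similar factors. Ratios of KO to WT depend on the measure, as for Sdc3, at 5.49 in FPKM and 6.28 in the fit of the counts. The summed FPKM of the syndecans was 136 ± 8.01 in WT and 292 ± 16.85 in KO (SD, n = 3 each), a ratio of means of 2.15. That of the glypicans was 22.6 ± 1.34 in WT and 53.9 ± 1.785 in KO, a ratio of 2.38. The syndecan sum was 5.89 to 6.11 times the glypican sum in WT libraries and 4.93 to 5.91 times in KO libraries, ranges that overlap. Within the syndecans, the share of Sdc4 went from 53.8% ± 1.76 in WT to 32.1% ± 2.10 in KO and that of Sdc3 from 9.35% ± 0.201 to 23.9% ± 1.90, while Sdc2 held 11.3% and 10.2%. Gpc1 made up 97.2% ± 0.356 of the glypican FPKM in WT and 33.0% ± 0.605 in KO. In KO the largest share was that of Gpc4, 43.8% ± 0.871, and Gpc6 held 21.9% ± 1.42. These shares are descriptions of transcript levels, and the depth behind the FPKM values is that of the counts.

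**Figure D2:**
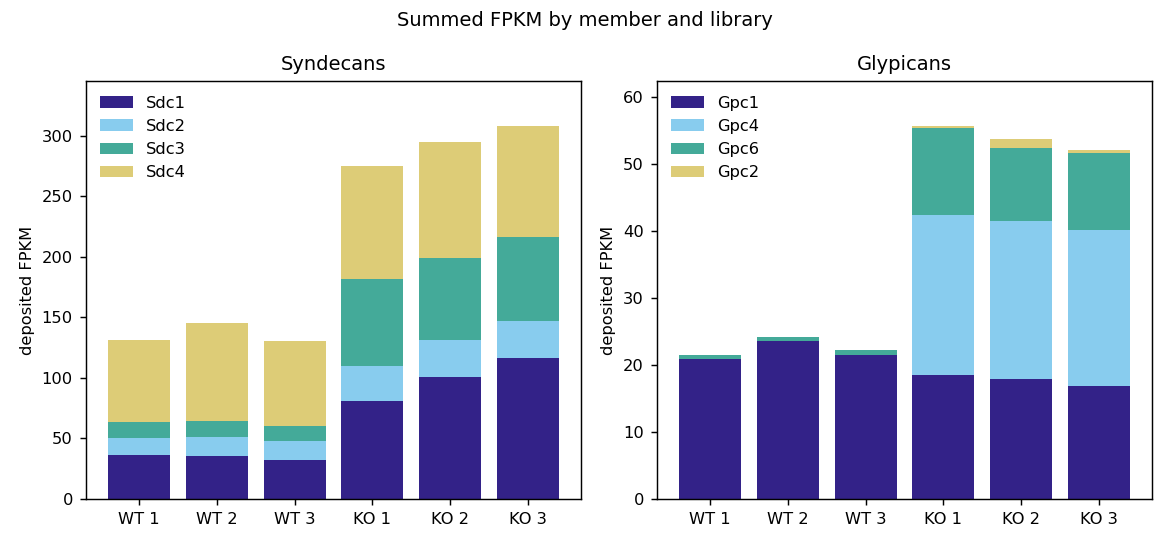
Deposited FPKM of each counted syndecan (left) and glypican (right), stacked per library on linear axes from 0, for 3 WT and 3 KO libraries; Gpc3 and Gpc5 are at 0 and not drawn. Syndecan sums lie from 130.6 to 145 FPKM in WT and from 275 to 308 in KO, and the glypican bars, nearly all Gpc1 in WT, are shared by Gpc1, Gpc4 and Gpc6 in KO.

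Gpc4 lies in a stretch of chromosome X in which other genes also went from 0 or near 0 in WT to counted in KO, whereas Gpc3, the next coding gene, did not. In the order of coding genes from GENCODE M21, Mbnl3 and Hs6st2 precede Gpc4, with 2 uncounted genes between, and Gpc3, Ccdc160, Phf6 and Hprt follow. Hs6st2, an enzyme that adds 6-O-sulfate to heparan sulfate, was at 0.539, 0.350 and 0.382 CPM in WT and at 179, 152 and 173 CPM in KO (edgeR log2 fold change 8.62, SE 0.15, adjusted p = 2.62e-09). Mbnl3, a splicing regulator, was at 0 counts in WT and at 6.14, 4.38 and 2.27 CPM in KO. On the other side Phf6 and Hprt were lower in KO: Phf6 averaged 61.3 CPM in WT and 44.5 in KO, and Hprt 113 in WT and 62.45 in KO. Of the 10 nearest coding genes of Gpc4, 5 were tested, 3 higher and 2 lower, beside 35.1% and 34.2% of all tested genes. The 3 higher were Mbnl3, Hs6st2 and Rap2c, of which Rap2c averaged 26.0 CPM in WT and 63.85 in KO. Of the 10 nearest to Gpc6 on chromosome 14, which include Gpc5, 4 were tested, 2 higher and 1 lower, against the same shares. Since both Nono and Gpc4 are X-linked and Y-linked transcripts summed to 149.9 to 163.3 CPM in KO libraries and to at most 0.0795 CPM in WT libraries, genotype and whatever the Y-linked difference reflects cannot be told apart here. Mbnl3, Rap2c, Phf6, Hprt and Gm43720 were chosen after their values were seen.

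**Figure D3:**
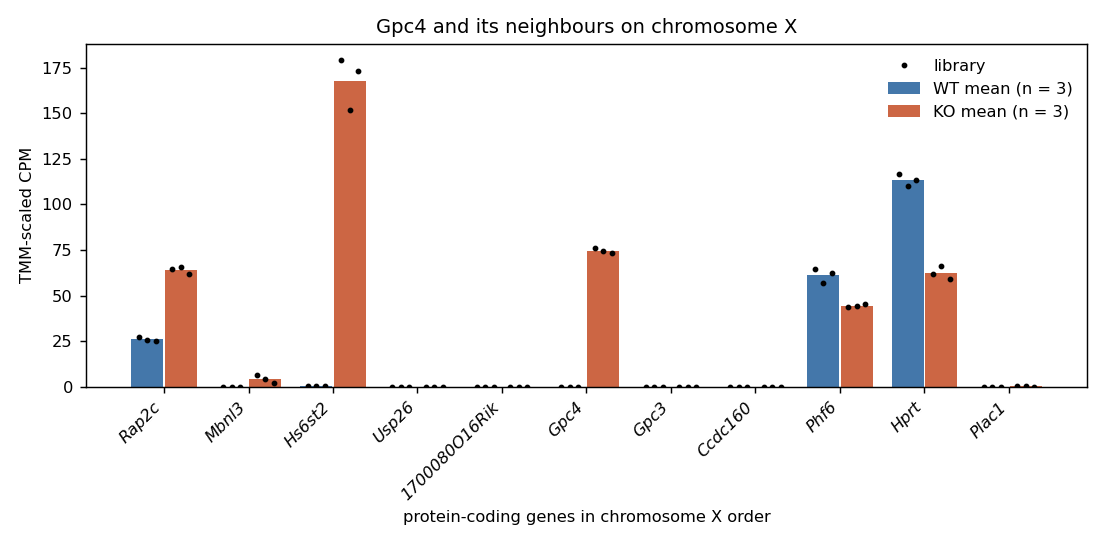
Mean TMM-scaled CPM (bars, n = 3 per group) and the single libraries (points) for Gpc4 and the 5 nearest protein-coding genes on each side, in their order along chromosome X and not to distance. Hs6st2 and Gpc4 stand at 168 and 74.6 CPM in KO with WT at or near 0, Gpc3 is at 0 in both groups, and Phf6 and Hprt are lower in KO.

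The genes that build the heparan sulfate chains on these core proteins went in both directions. Of 7 linkage region enzymes, which assemble the tetrasaccharide joining chain to core, 3 were higher and 3 lower, beside 35.1% higher and 34.2% lower among all tested genes. Xylt1, one of the 3 higher, had 0 counts in WT and passed the filter only through KO, so the count is a description. Pxylp1, a xylose phosphatase that lets the chain be extended, rose 3.31-fold and B4galt7, a galactosyltransferase, from 13.4 to 26.8 CPM. Fam20b, the xylose kinase that Pxylp1 counteracts, fell from 105 to 84.2 CPM, and B3gat3, which adds the closing glucuronic acid, from 55.65 to 40.9 CPM. Of 5 genes of the Ext family of chain polymerases, 3 were higher and 1 lower (35.1% and 34.2% of all tested genes), with 1 higher from the deposited FPKM. Extl1 was at 35.0, 44.5 and 36.2 CPM in WT and at 0, 0.1455 and 0.221 CPM in KO (edgeR log2 fold change -8.28, SE 0.50, adjusted p = 9.32e-06). Extl1 passed the filter only through WT, so its p-value and the count of polymerases lower in KO are descriptions. Extl3, which starts the heparan sulfate chain, was 1.44-fold higher and Extl2, a family member that acts on the linkage region, 1.26-fold higher, the latter without a call in the FPKM alternatives.

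Of 16 enzymes that modify the chain, 9 were tested, 5 higher and 2 lower (35.1% and 34.2% of all tested genes), and from log2(FPKM + 1) 3 were higher. The 5 include Hs3st3b1 (0 counts in WT and 72 in KO) and Ndst3 (7 and 283), which passed the filter only through KO, so the count is a description. Ndst1, the enzyme that replaces acetyl with sulfate on glucosamine, was at 158, 146 and 159 CPM in WT and at 375, 351 and 363 CPM in KO, 2.35-fold higher with no overlap (edgeR adjusted p = 1.23e-07). Glce, the epimerase that turns glucuronic into iduronic acid, went the other way, from 201, 207 and 204 CPM to 48.0, 49.4 and 48.1 CPM, 4.21-fold lower (edgeR adjusted p = 6.17e-09). Hs6st1 fell 1.34-fold, whereas Hs6st2 rose as given above. Of 7 tested genes of precursor and sulfate donor supply, 5 were higher and 2 lower, against the same shares. Ugdh, which makes UDP-glucuronic acid, rose from 155 to 254 CPM and the donor transporter Slc35b3 1.88-fold, while the donor synthase Papss2 fell 2.48-fold and the nucleotide sugar transporter Slc35d1 2.10-fold.

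Genes that edit or release the proteoglycans outside the cell also split. Of 12 listed, 10 were tested, 6 higher and 4 lower, beside 35.1% and 34.2% of all tested genes. One of the 6, Notum, had 0 counts in WT and passed the filter only through KO, so the count is a description. Sulf1, which removes 6-O-sulfate from the chains, was at 1.19, 1.27 and 1.10 CPM in WT and at 210.2, 192 and 209.6 CPM in KO, a 172-fold difference (edgeR log2 fold change 7.43, SE 0.08, adjusted p = 5.29e-10). Hs6st2 and Sulf1 add and remove the same sulfate. Both were at 1.27 CPM or less in every WT library and at 151.7 CPM or more in every KO library. Sulf2 also removes this sulfate and Hs6st1 also adds it, and both were well counted in WT. Sulf2 was at 47.65, 54.8 and 47.6 CPM in WT and at 421, 419 and 411 CPM in KO, 8.34-fold higher. Hs6st1 averaged 68.5 CPM in WT and 51.1 CPM in KO. Mmp14, a membrane-bound protease that can cut Sdc1, rose 8.54-fold. Adam10, a sheddase, fell 2.72-fold, with KO replicate 2 (99.35 CPM) under the other KO libraries (174 and 172 CPM), and heparanase, Hpse, which cuts the chains, fell from 58.55 to 17.2 CPM. Of 8 lysosomal enzymes that degrade heparan sulfate, 7 were higher and 0 lower by edgeR (35.1% and 34.2% of all tested genes), with Sgsh not called (1.60-fold higher, adjusted p = 0.0587, unadjusted p = 0.0414). The 16 alternatives likewise called 7 to 8 higher and 0 lower. Their median log2 fold change was 1.68, with Arsg 5.61-fold and Naglu 4.73-fold higher.

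Other heparan sulfate carriers and the intracellular partners of syndecans were counted from the same fit. Of 10 other carriers, 8 were tested, 4 higher and 1 lower (35.1% and 34.2% of all tested genes), or 2 lower without WT replicate 1. The 1 lower, Srgn, passed the filter only through WT, so the count is a description. Col18a1, a basement membrane collagen that carries heparan sulfate, rose from 8.36 to 86.4 CPM and Tgfbr3, betaglycan, from 61.8 to 285 CPM. Of 11 syndecan cytoplasmic partners, 7 were higher and 2 lower, or 1 lower in each fit that left out a library, beside 35.1% higher and 34.2% lower among all tested genes. The actin crosslinker Actn1 rose 2.83-fold and the GTPase Rhog 2.45-fold, Ezr, which links membrane proteins to actin, fell 1.71-fold, and Gipc1, a PDZ adaptor, averaged 81.4 CPM in WT against 73.9 in KO, a call lost in 9 of 16 alternatives. Some of these core proteins, Sdc1 among them, also carry chondroitin sulfate. Of 15 enzymes of chondroitin and dermatan sulfate, 12 were higher and 1 lower, beside 35.1% and 34.2% of all tested genes. Of the 12, Chsy3 and Chst13 had 0 counts in WT and Chst15 had 36, and these 3 passed the filter only through KO, so the count is a description. Chst15 rose from 0.1915 to 25.95 CPM and Ust 12.3-fold, while Csgalnact2 was 1.15-fold lower, a call lost without WT replicate 3 and without KO replicate 2. Fibroblast markers (10900 to 11810 CPM in KO, 887.5 to 1038 CPM in WT) and Y-linked transcripts differed between the same libraries, and their part in the differences of these lists was not tested.

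**Figure D4:**
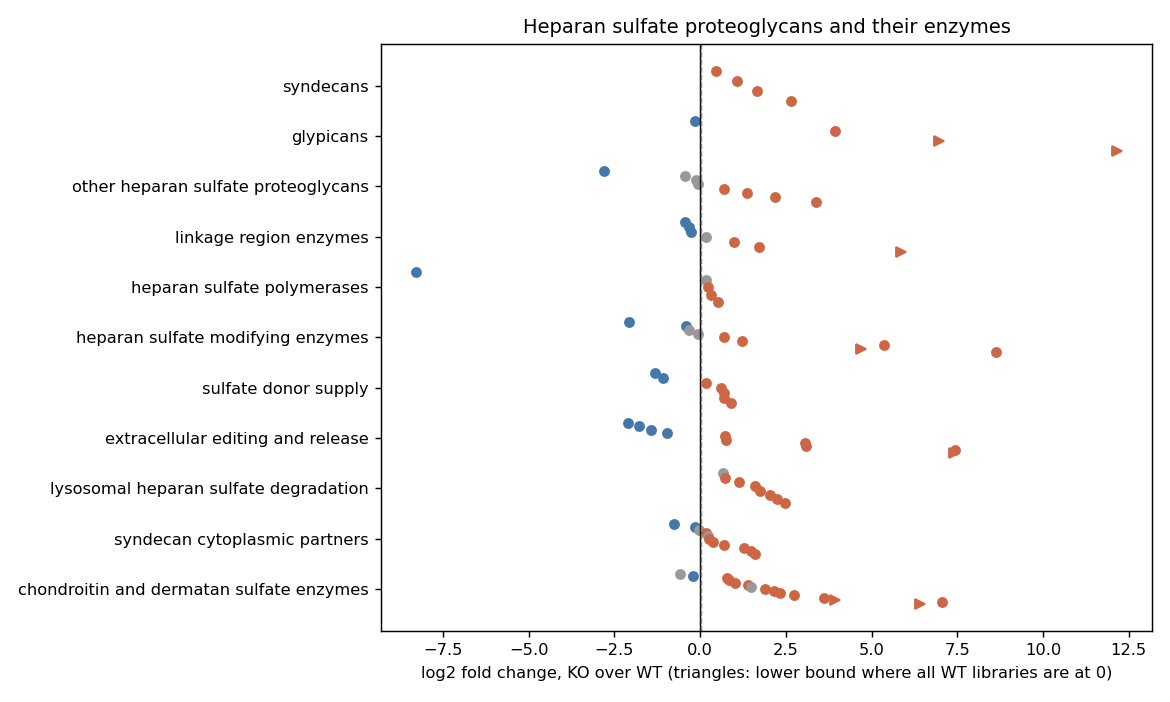
Log2 fold change, KO over WT, of each tested gene by list; orange is higher and blue lower at an adjusted p of 0.05 (edgeR), grey did not pass, triangles are lower bounds for genes at 0 in all WT libraries, and the dashed line is the median of all tested genes (0.03). All 4 syndecans lie right of 0, the polymerase and chain modifying lists hold points on both sides, and Gpc4 is farthest right with a bound of 12.17.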

How the data were processed

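RNA sequencing counts of 3 KO and 3 WT libraries were used, grouped and numbered by the sample titles. Per the file headers, the authors deposited unnormalized counts and FPKM for each Ensembl gene and library, and the FPKM are theirs. The build GRCm39 and the tools HISAT2, CASAVA 1.8, edgeR and SAMtools 1.3.1 are named in the submitters' processing notes without roles. How reads were counted, with or without strand, and on which annotation is not given in the sources used here. Overlapping and antisense genes may therefore share reads.

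Symbols were matched by Ensembl ID for 55394 of 56393 genes (98.23%) with GENCODE M21, which is of build GRCm38 and served for names and gene order only. Promoter windows came from RefSeq on GRCm38.p6 with their own coordinates. Genes were filtered with filterByExpr, which kept 18732, scaled with TMM and compared by edgeR's quasi-likelihood test, robust, version 4.0.16 (R 4.3.3), KO against WT over 6 libraries, with Benjamini-Hochberg adjustment over all tested genes at 0.05. The SE of a log2 fold change is its size divided by the square root of the test's F. The floors cover counting error only. On counts simulated for 18732 genes of the KO against WT comparison, with 50 genes changed at each size, the test called 54% of 1.5-fold, 72% of 2-fold, 88% of 4-fold and 98% of 8-fold changes. The changed genes were drawn from those with at least 50 expected counts in WT, and all others were left unchanged. In the data 69.3% of genes were called, so the cut set by the adjustment differs. These rates therefore do not give the recovery in the data, nor that of genes with few counts.

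Alternatives were DESeq2 1.42.0 (size factors and Wald test), limma 3.58.1 (voom, and log2 FPKM with a pseudocount of 0.1 or 1), scaling by total counts, 2 other filters, a threshold of 0.01, the replicate block and leaving out each library. Within each pathway list, the rule named the 2 largest increases and the 2 largest decreases that passed the test at 5 CPM or more in the higher group. Genes named for passing the filter (about 10 counts in every library of a group) through 1 group only fall outside this rule, having been picked with their values known. The same holds for Sulf2, given beside Sulf1. The members and lists were chosen with earlier results of these data known.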

Additional observations from a re-analysis of the deposited data

How the results depend on the processing

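The members were called in the same direction under all 16 alternatives, except Gpc1, whose sign held but whose call was lost in 7. The log2 fold change of Gpc1 was -0.13 with the filter of at least 1 CPM in 3 samples (adjusted p = 0.0659), -0.16 with the replicate number as a block (adjusted p = 0.0844), -0.16 at the threshold of 0.01 and -0.19 to -0.12 without 1 library (adjusted p up to 0.133). The count of members lower in KO was accordingly 0 with the filter of at least 1 CPM, 0 under the replicate block, 0 at the threshold of 0.01 and 0 to 1 without 1 library, and 7 members were higher in each. Fitted log2 values of Gpc4 (4.62 to 15.15) and Gpc2 (0.75 to 10.21) depend on the prior count or pseudocount and are not given as folds. Scaling to library totals in place of TMM moved the median over all tested genes from 0.0313 to -0.0992 on the log2 scale, and the log2 fold change of Sdc4 was then 0.35. The number of genes called over the whole table ranged from 11026 to 13382, and over the pathway lists from 61 to 70. Within single lists, several small counts moved. The other heparan sulfate proteoglycans lower in KO (1) numbered 2 with total-count scaling, 2 with limma on log2(FPKM + 0.1), 2 with limma on log2(FPKM + 1), 0 with the filter of at least 1 CPM and 1 to 2 without 1 library. The polymerases higher in KO (3) numbered 1 with each limma fit on FPKM, and the modifying enzymes higher in KO (5) numbered 3 with limma on log2(FPKM + 1). The cytoplasmic partners lower in KO (2) numbered 1 with the filter of at least 1 CPM, under the replicate block, at the threshold of 0.01 and without any 1 library. They numbered 3 with total-count scaling and with limma on log2(FPKM + 1). The partners higher in KO (7) numbered 5 with total-count scaling and with each limma fit on FPKM. The chondroitin and dermatan sulfate enzymes lower in KO (1) numbered 2 with total-count scaling, 2 with limma on log2(FPKM + 0.1), 0 at the threshold of 0.01 and 0 to 1 without 1 library (0 without WT replicate 3 and without KO replicate 2). The cause of these moves was not tested. Same-numbered KO and WT libraries did not deviate together (correlation of deviations from the group means across genes -0.024, 0.018 and -0.009), so the numbers are not treated as pairs. The depth, at least 56529170 counts a library, limits Gpc2 and the members at 0.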
